A study of Mus musculus with 4 samples.

Results

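The regions described here lie inside short protein-coding genes, those whose RefSeq span in the mouse genome build mm10 was 10 kb or less. They came from a list of regions in which captured, methylated DNA was lower in cultured muscle stem cells of tamoxifen-treated mice than in those of oil-treated mice. A region on chromosomes 1 to 19 was taken when its midpoint lay inside a short gene and inside no longer protein-coding gene. The rule used gene length and position only, not the size of the difference. It gave 1143 regions of 38581 on these chromosomes and 39231 in all (2.96%, exact 95% binomial limits 2.80% to 3.14%). Another 77 regions lay in both a short and a longer gene and were left out. The 1143 regions fell in 945 genes.

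The cells were satellite cells, the stem cells of skeletal muscle, from hindlimb muscles of 9-week-old mice, cultured for 3 days on Matrigel. Tamoxifen (150 µl of 20 mg/ml, in corn oil) was injected on 5 consecutive days so that Cre recombinase would remove Uhrf1, and the controls received oil. The Cre driver, the strain and the deleted interval are not given in the sources used here, nor is the number of mice behind a library. Sheared DNA was separated by a kit that binds methylated DNA with MBD2 protein into methylated and non-methylated parts, and each part of each treatment gave 1 library, 4 libraries in all. The list compared 1 oil alignment with 1 tamoxifen alignment, and these are read here as the methylated part, which the file header does not state. With 1 library per treatment no spread between mice could be estimated and no test between treatments was made. Intervals below cover counting error only. Loss of Uhrf1, tamoxifen itself, the mice and the capture cannot be told apart as sources of a difference. The list holds only regions higher in oil, so the direction of every region below was fixed by how the list was made. DNA carries no level of gene expression, so the labelled cell type could not be checked against expressed markers.

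Cytosine methylation in mammals sits mostly at CpG dinucleotides and is copied to new DNA after replication by the methyltransferase Dnmt1. Uhrf1 recognises hemimethylated sites and recruits Dnmt1 to them. Promoters rich in CpG, called CpG islands, are usually unmethylated in all tissues, while gene bodies and CpG-poor promoters are often methylated. A short gene brings its promoter, its body and its 3' end within a few kilobases of each other.

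The promoter sequences below are shown because the regions of short genes lay mostly outside promoters. The rule favours this, since a region's midpoint must lie inside the gene. The few promoters covered had fewer CpG than those of most other short genes with a region. Each sequence below is the 250 bases before an annotated start, from RefSeq (GRCm38.p6), written 5' to 3' along the gene with CpG in capitals. The first 4 were overlapped by a region of their own gene.
Ifng (chr10:118440796-118441045, plus strand): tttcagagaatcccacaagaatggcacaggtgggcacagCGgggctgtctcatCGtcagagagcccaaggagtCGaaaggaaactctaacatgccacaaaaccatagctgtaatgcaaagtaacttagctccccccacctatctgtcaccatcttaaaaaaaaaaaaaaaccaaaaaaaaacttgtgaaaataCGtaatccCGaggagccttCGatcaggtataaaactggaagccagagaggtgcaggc
Tmem102 (chr11:69805625-69805874, minus strand): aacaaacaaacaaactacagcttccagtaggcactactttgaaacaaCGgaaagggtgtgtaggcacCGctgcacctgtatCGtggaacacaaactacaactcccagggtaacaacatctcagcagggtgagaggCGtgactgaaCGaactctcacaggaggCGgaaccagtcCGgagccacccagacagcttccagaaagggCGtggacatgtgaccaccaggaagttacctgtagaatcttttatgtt
Serpina3a (chr12:104112474-104112723, plus strand): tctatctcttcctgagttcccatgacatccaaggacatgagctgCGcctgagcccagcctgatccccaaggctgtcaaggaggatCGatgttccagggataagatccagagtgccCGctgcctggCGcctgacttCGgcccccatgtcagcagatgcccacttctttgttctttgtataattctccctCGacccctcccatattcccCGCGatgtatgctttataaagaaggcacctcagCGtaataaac
Pramel1 (chr4:143394191-143394440, plus strand): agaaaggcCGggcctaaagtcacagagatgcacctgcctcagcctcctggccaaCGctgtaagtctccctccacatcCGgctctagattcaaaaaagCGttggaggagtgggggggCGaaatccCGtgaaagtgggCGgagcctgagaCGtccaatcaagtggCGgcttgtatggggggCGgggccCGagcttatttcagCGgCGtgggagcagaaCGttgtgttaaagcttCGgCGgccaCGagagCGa
Ifng encodes interferon gamma, the main cytokine of T helper 1 cells. Its region covered 242 of these 250 bases, which hold 6 CpG, and ran from 118440804 to 118441341, across the start into the gene. The oil library had 111 tags over the region's summit and the tamoxifen library 31, a fold of 4.55 (limits of the scaled tag ratio 3.13 to 7.24). Tmem102, a membrane protein gene, had 172 of its 250 bases covered, with 8 CpG (72 oil and 18 tamoxifen tags, fold 4.96). Serpina3a, a serine protease inhibitor of the alpha-1-antichymotrypsin family, had 128 bases covered, with 9 CpG (62 and 13 tags, fold 5.77). Pramel1 belongs to the multi-copy Prame family of germline-expressed genes. Its promoter held 18 CpG, 185 bases were covered, and its fold of 1.65 was the lowest of all 1143 regions (192 and 152 tags). Reads from near-identical copies may be mixed there, so its counts are uncertain.

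The promoters of Sox12 and Eif1b, both with regions of over 10-fold in the body of the gene, show the other arrangement. No region of the gene overlapped them. Both are richer in CpG than most promoters of this kind. With 50 bases after the start included, they hold 47 and 50 CpG. The 716 short genes with a region only outside the promoter had a median of 17 (quartiles 7 and 25), and Atp6v0c, for example, had 21.
Sox12 (chr2:152398047-152398296, minus strand): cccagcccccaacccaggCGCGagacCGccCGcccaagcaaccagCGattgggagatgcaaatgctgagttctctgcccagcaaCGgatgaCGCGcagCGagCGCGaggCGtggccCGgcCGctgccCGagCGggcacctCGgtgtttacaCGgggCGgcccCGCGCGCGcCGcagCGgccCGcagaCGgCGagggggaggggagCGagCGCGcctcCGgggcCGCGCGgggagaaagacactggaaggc
Eif1b (chr9:120492356-120492605, plus strand): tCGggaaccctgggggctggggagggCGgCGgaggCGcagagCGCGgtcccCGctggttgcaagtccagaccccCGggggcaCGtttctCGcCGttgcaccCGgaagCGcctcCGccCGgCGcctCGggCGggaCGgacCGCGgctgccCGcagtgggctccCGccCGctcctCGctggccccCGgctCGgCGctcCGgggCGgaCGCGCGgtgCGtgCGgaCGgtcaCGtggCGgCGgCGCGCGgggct
Sox12 encodes a transcription factor of the SoxC group. These bases hold 35 CpG, and the region lay 2929 bp inside the gene. Eif1b encodes a translation initiation factor. Its bases hold 42 CpG, and its 2 regions lay 1599 and 2323 bp inside.

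At a region's summit the oil library had between 16 and 289 tags (unscaled counts of extended reads), with a median of 49 and quartiles of 36 and 69. The tamoxifen library had a median of 13 tags (quartiles 8 and 21) and a highest of 163, and 28 regions had 2 or fewer. The fold, the authors' oil value plus 1 over the scaled tamoxifen value plus 1, ran from 1.65 to 28.9 with a median of 4.69 (quartiles 3.71 and 5.91). The scaled tamoxifen tags came to a median of 19.9% of those in oil (quartiles 15.3% and 25.4%). A fold of 4 or more was found in 764 regions (66.8%, limits 64.0% to 69.6%), where 66.2% of all autosomal regions reached it. A fold of 10 or more was found in 21 (1.84%) against 2.03% of all, and a fold under 2 in 6 regions against 0.635% of all. The size of the difference was therefore near that of the whole list. The median fold was 4.71 in longer genes and 4.45 outside protein-coding genes. Wide regions were more common: 85 of 1143 (7.44%, limits 5.98% to 9.11%) were 500 bp or longer, against 5.10% (4.82% to 5.40%) in longer genes and 4.42% (4.11% to 4.76%) outside genes. The median width was 264 bp and the widest region 1189 bp.

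**Figure D1:**
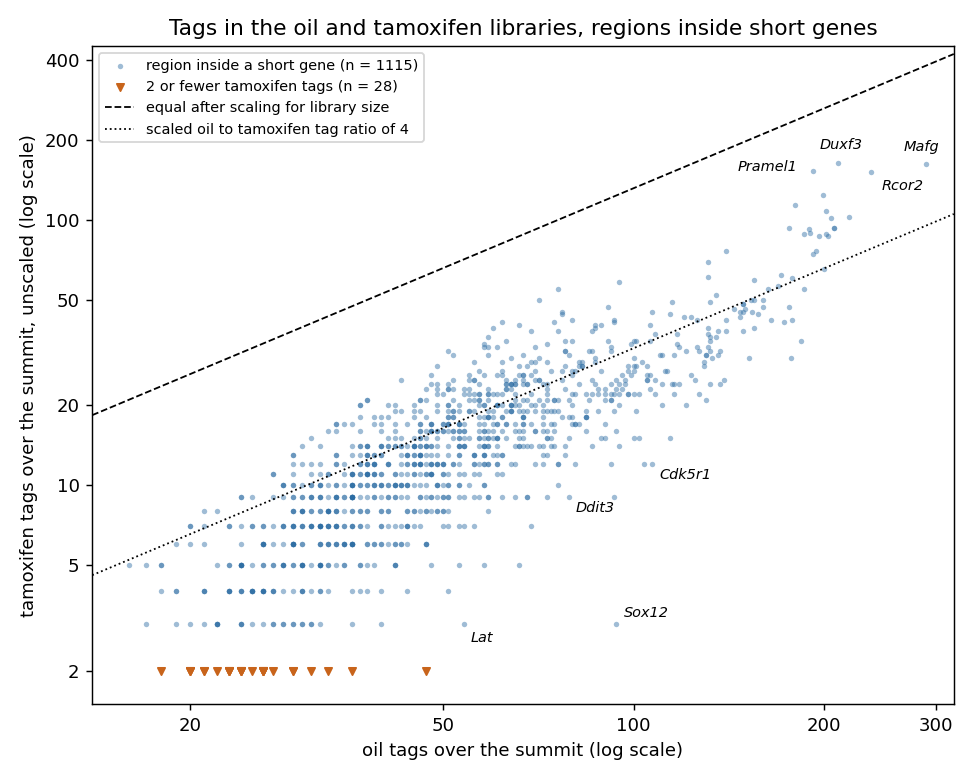
Oil tags over the summit (x axis) and unscaled tamoxifen tags (y axis), both on log scales, for each of the 1143 regions inside short genes; triangles mark the 28 regions with 2 or fewer tamoxifen tags. All points lie below the dashed line of equal scaled tags, which the list's construction fixes, and Sox12 lies farthest below it (94 and 3 tags) while Pramel1 (192 and 152) and Duxf3 (210 and 163) lie nearest.

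The share of short genes with a region rose with gene length, while the density per megabase changed less. Of 7343 autosomal short genes, 945 (12.9%) held a region, against 7943 of 13322 longer genes (59.6%). By span, 2.02% of genes up to 1 kb held one, 4.30% at 1 to 2 kb, 10.4% at 2 to 4 kb, 14.8% at 4 to 6 kb, 20.0% at 6 to 8 kb and 28.9% at 8 to 10 kb. Per megabase of gene span, genes up to 2 kb had 30 regions (limits 23.4 to 37.9), or 39.7 (29.0 to 52.9) without sensory receptors. Those of 2 to 4 kb had 40.8, of 4 to 6 kb 38.4, of 6 to 8 kb 37.5 and of 8 to 10 kb 45 (40.6 to 49.8). Against longer genes the order of the densities was the reverse of that of the shares: 39.8 regions in short genes (exact Poisson limits 37.5 to 42.1, over 28.7 Mb) against 22.9 in longer ones (22.6 to 23.2, over 955 Mb), 1.74 times as many. Short genes made up 2.92% of protein-coding gene territory and held 4.96% of the regions in it. Most genes had a single region: 771 had 1, 147 had 2, 23 had 3 and 4 had 4. Regions of 1 gene are not independent of each other. Of the 7343, 387 lie wholly inside longer genes and could hold no region under the rule.

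Along the gene, regions were sparse near the start. Orientation was known for 5909 short genes (80.5%), which held 905 pairs of a region and a gene. With the gene cut into 5 equal stretches, these held, from start to end, 11.0%, 17.0%, 22.7%, 24.8% and 24.5% of them. Per megabase, density was 22.6 in the first 500 bp (limits 17.3 to 28.9) and 20.4 in the next 500 bp, then 34.3 at 1 to 2 kb and 45.9 at 2 to 4 kb (40.8 to 51.4). From the 3' end it was 32.8 in the last 500 bp (26.4 to 40.4) and 52.8 at 0.5 to 1 kb (44.4 to 62.3), then fell with distance to 31.8 at 4 to 6 kb. Longer genes were sparser still near the start, with 12.1 regions per megabase in the first 500 bp (9.35 to 15.5) and 9.86 in the next 500 bp. At 2 to 4 kb from the start they had 27.1 (24.9 to 29.4), also below the short genes. Within 500 bp of the 3' end they had 49.7 (43.8 to 56.1), above the short genes. The whole short gene (38.9 per megabase, 36.4 to 41.5) lay between the first 10 kb of longer genes (26.8, 25.8 to 27.8) and their last 10 kb (45.3, 44.0 to 46.6). In all, 394 regions (34.5%, 31.7% to 37.3%) had their midpoint within 1000 bp of either gene end, a stretch that makes up 40.3% of short gene span.

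**Figure D2:**
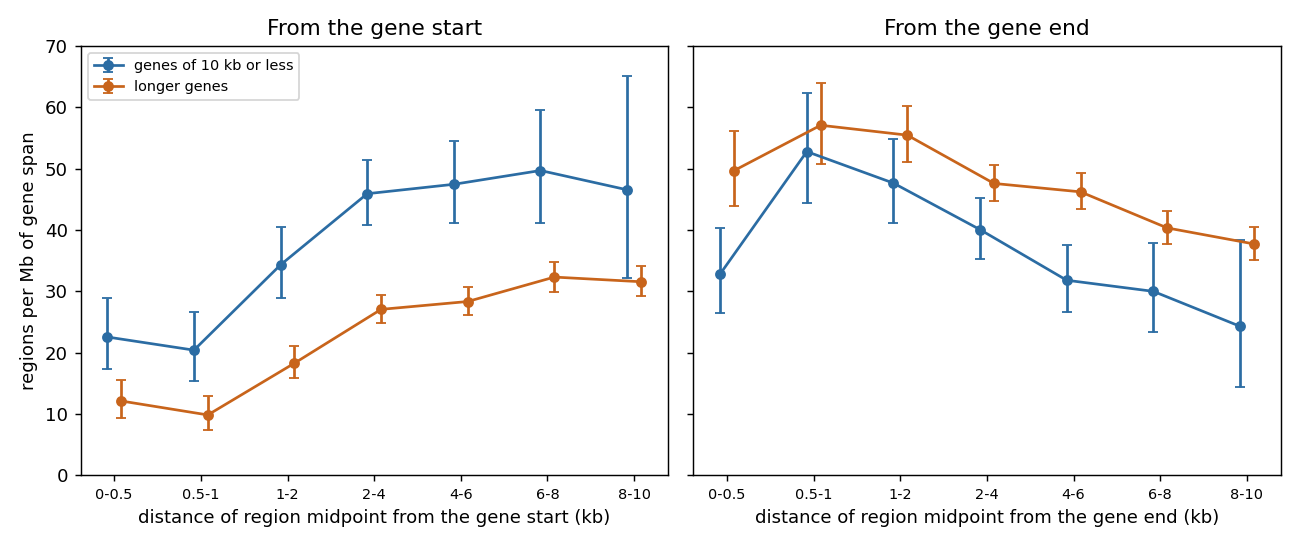
Regions per Mb of gene span (y axis) by distance of the region's midpoint from the gene start (left) and from the gene end (right) in kb, for short genes (blue) and longer genes (orange), with exact 95% Poisson limits. Density in short genes was 22.6 in the first 0.5 kb and 45.9 at 2 to 4 kb from the start, and longer genes lay lower at 2 to 4 kb from the start (27.1) and higher in the last 0.5 kb (49.7 against 32.8).

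Over the promoter itself, 29 of 5909 short genes (0.491%, limits 0.329% to 0.704%) had a region of their own overlapping the window from 250 bp before to 50 bp after an annotated start by 1 bp or more. In longer genes it was 69 of 10548 (0.654%, 0.509% to 0.827%), and the intervals overlap. The rule limits this overlap, since a region's midpoint must lie inside the gene and 250 bp of the window lie before the start. Counting any listed region, whether or not its midpoint lay in the gene, 57 short genes had a covered window. Besides the 4 printed above, the 29 included Lta, a cytokine of the tumour necrosis factor family (43 and 10 tags, fold 5.10), and Il12a, a subunit of interleukin 12 (65 and 22, fold 3.71). Figla, an oocyte transcription factor, had 52 and 18 tags and a fold of 3.60. In Lta, Il12a and Figla the covered start lies inside the gene, downstream of its outermost annotated end. Tnp1, which packs sperm DNA (76 and 21 tags, fold 4.53), and Fcer1g, the shared gamma chain of Fc receptors (42 and 9, fold 5.47), were covered at the outermost start. Igfbp1, an insulin-like growth factor binding protein, was too (35 and 6, fold 6.46). Of the 250 bp before the start, only 17, 49 and 23 were covered in Tnp1, Fcer1g and Igfbp1.

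The number of CpG in the promoter window differed between short genes with a region and those without. Each gene was given 1 window, the one most overlapped by its own region or else the one at the outermost start. In some of the 29 genes with a covered window, such as Lta, that is an inner start, so the classes were not measured at like starts throughout. The median was 4 in the 5164 genes with no region, 17 in the 716 with a region elsewhere in the gene and 7 in the 29 with a region over the window. Without sensory receptors the medians of these classes were 8 (4008 genes), 17 (699) and 7.5 (26). An observed to expected CpG ratio over 0.6, a common mark of a CpG island, was found in 29.2% of the first class, 58.8% of the second and 4 of the 29 in the third. Read the other way, a region lay in 24 of 1363 genes with 0 or 1 CpG in the window (1.76%) and in 91 of 1399 with 2 to 4 (6.50%). It lay in 109 of 783 with 5 to 9 (13.9%), in 226 of 1054 with 10 to 19 (21.4%) and in 295 of 1310 with 20 or more (22.5%, limits 20.3% to 24.9%). Regions over the window itself followed another order: 1, 3, 12, 12 and 1 genes in these classes. Per megabase of gene span, density went from 7.63 through 21.7, 38.2 and 55.7 to 54.0. Gene span rises with promoter CpG too. Among genes over 4 kb alone, the densities were 5.53 (2.76 to 9.90), 16.8, 34.5, 54.0 and 57.9 (51.8 to 64.5). MBD2 capture depends on the CpG density of the fragment, and CpG in gene bodies was not analysed here, so its part in this order was not tested.

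**Figure D3:**
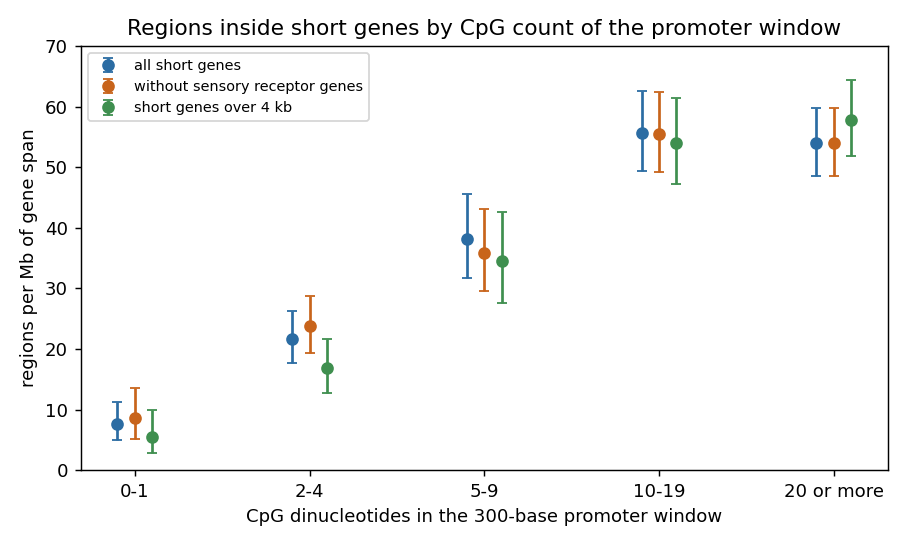
Regions per Mb of short gene span (y axis) by the number of CpG in the 300-base promoter window (x axis), for all short genes, without sensory receptor genes and for genes over 4 kb, with exact 95% Poisson limits. In all 3 sets the density was lowest at 0 to 1 CpG (7.63 over all short genes) and reached about the same level in the classes with 10 to 19 and 20 or more.

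The gene families below come from 31 lists, and each count is set beside the 12.9% of all short genes. Sensory receptors, few of which held a region, lower that share, and without them it was 15.4%. The share over a list also moves with the span of its genes, which was not matched. Among transcription factors the Sox genes, which direct cell identity, had a region in 5 of 14 short members (35.7%, limits 12.8% to 64.9%). Sox9, a regulator of cartilage and of many stem cells, had 205 tags in oil and 101 in tamoxifen (fold 2.64, tag ratio 2.09 to 3.41). Sox10, of neural crest and Schwann cells, had 186 and 55 tags (fold 4.35, 3.27 to 6.11), and Sox12 had 94 and 3 (fold 28.9, 13.6 to 203). Sox7, an endothelial regulator, had a fold of 6.64 (36 and 6 tags), and Sox8 one of 5.19 (24 and 5). Both libraries thus kept many tags at Sox9 and almost none remained in the tamoxifen library at Sox12.

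Zinc finger genes named Zfp, many of them DNA-binding repressors, had a region in 18 of 58 short members (31.0%, 19.5% to 44.5%). On chromosome 7, 10 of 27 held one. The best covered was Zfp383 with 157 oil and 44 tamoxifen tags (fold 4.57), followed by Zfp3 (90 and 21, fold 5.35) and Zfp553 (80 and 20, fold 4.98). Homeobox genes were near the level of all short genes, with 4 of 33 in the Hox clusters (12.1%, 3.40% to 28.2%) and 9 of 77 outside them (11.7%). Hoxa11, a limb patterning gene, had 2 regions (51 and 17 tags, fold 3.72; 38 and 13 tags, fold 3.57). Mixl1, a mesendoderm factor, had 140 and 42 tags (fold 4.27), and Hhex, a regulator of liver and blood vessel development, 84 and 18 (fold 5.77). Basic helix-loop-helix genes had regions in 2 of 58 (3.45%, 0.420% to 11.9%), Figla and the neuronal factor Neurod6 (29 and 3 tags, fold 9.12). Forkhead genes had regions in 2 of 25. None of the 12 short genes on the list of satellite cell and myogenic regulators held a region, which allows a share of up to 26.5% (exact limit), nor did any of 6 Cdk inhibitors, which allows up to 45.9%.

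Immediate early and stress genes, which respond fast to signals, had a region in 9 of 40 (22.5%, 10.8% to 38.5%). Ddit3, a stress factor also called CHOP, had 79 oil and 9 tamoxifen tags (fold 10.2, 5.77 to 26.1), and Fosb, a subunit of AP-1, had 123 and 26 (fold 5.95). Mycn, a Myc family oncogene, kept more in the tamoxifen library, 92 tags against 189 (fold 2.67, 2.09 to 3.49). Egr1 (93 and 41 tags, fold 2.91) and Ccn1, a matricellular protein (91 and 47, fold 2.50), also stood below the median fold of 4.69.

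Among signals and receptors, secreted growth and patterning factors had a region in 9 of 51 (17.6%, 8.40% to 30.9%). Gdf5, a joint morphogen, had 116 and 24 tags (fold 6.06), and Dkk4, an inhibitor of Wnt signalling, 105 and 28 (fold 4.74). Dll1, a Notch ligand, had 43 and 14 (fold 3.77). Chemokines, interferons and interleukins had regions in 6 of 80 (7.5%, 2.80% to 15.6%). Besides Ifng, Il12a and Lta these were led by Ccl27b, a chemokine, with 73 and 13 tags (fold 6.78), and Tnf with 37 and 11 (fold 4.05). G protein-coupled receptors outside the senses had regions in 17 of 129 (13.2%, 7.87% to 20.3%). Mc5r, a melanocortin receptor on chromosome 18, had 2 regions (106 and 40 tags, fold 3.40; 70 and 27 tags, fold 3.29), and Ptgir, the prostacyclin receptor, had 1 (83 and 28, fold 3.76).

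Among structural proteins, keratins, the filaments of epithelia, had a region in 11 of 38 short members (28.9%, 15.4% to 45.9%), 7 of 22 on chromosome 11 and 4 of 16 on chromosome 15. Krt24 had 101 oil and 19 tamoxifen tags (fold 6.58, 4.24 to 12.1), Krt26 had 73 and 16 (fold 5.61), and Krt82, a hair keratin, had 40 and 3 (fold 12.5, 5.57 to 88.3). The median keratin promoter window held 5 CpG. The hair-building keratin-associated proteins had regions in 4 of 55 (7.27%), led by Krtap19-2 (63 and 23 tags, fold 3.45), and Krtap4-1 had 32 and 3 (fold 10). Tubulins, subunits of microtubules, had a region in 6 of 14 (42.9%, 17.7% to 71.1%). Tubg1, of the microtubule organising centre, had 112 and 27 tags (fold 5.23) and Tubb5 had 54 and 9 (fold 6.99). Tuba3a and Tuba3b are near-identical, so their tags are uncertain. Of contractile and muscle structural genes, 8 of 33 held a region (24.2%, 11.1% to 42.3%). Actc1, the cardiac actin expressed in developing muscle, had 101 and 28 tags (fold 4.56), Myoz1, of the fast-fibre Z disc, had 92 and 21 (fold 5.47), and Ankrd1 had 86 and 32 (fold 3.42). Chrne, the adult acetylcholine receptor subunit, had 47 and 18 (fold 3.26). S100 and small calcium-binding genes had regions in 4 of 17, led by the calmodulin gene Calm3 (125 and 25 tags, fold 6.28). Claudins of tight junctions had a region in 1 of 16 and potassium channels in 1 of 15. Kallikreins and chymotrypsin-type proteases had regions in 4 of 75 (5.33%), and none of 22 short clustered protocadherins held one, which allows a share of up to 15.4% (exact limit).

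Markers of other cell types that muscle holds had a region in 3 of 15 short members (20.0%, 4.33% to 48.1%). Besides Sox10, these were S100b, a Schwann cell marker (110 and 31 tags, fold 4.50), and Cfd, an adipocyte protein (99 and 26, fold 4.80). A change in the mix of cells between the libraries was not tested.

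Among genes active in most cells, nuclear genes of oxidative phosphorylation had a region in 11 of 62 (17.7%, 9.20% to 29.5%). Atp5d, the delta subunit of ATP synthase, had 58 and 5 tags (fold 12.3, 6.16 to 48.6), and Atp5a1, its alpha subunit, 80 and 17 (fold 5.80). Cytosolic ribosomal protein genes had a region in 9 of 80 (11.2%, 5.28% to 20.3%), led by Rpl7l1 (135 and 36 tags, fold 4.78) and Rpl4 (61 and 15, fold 4.98). Replication-dependent histone genes, short and without introns, had a region in 1 of 64 (1.56%, 0.0396% to 8.40%). It was H2bc1, a testis-expressed histone (47 and 23 tags, fold 2.59).

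Germline genes, many of which are silenced by DNA methylation in somatic tissue, had a region in 11 of 32 short members (34.4%, 18.6% to 53.2%), with 15 regions and a median fold of 4.43. Hspa2, a heat shock protein of spermatocytes, had 149 and 48 tags (fold 3.99, 2.92 to 5.76), and Zp3, which builds the egg coat, had 82 and 17 (fold 5.94, 3.72 to 11.4). Zpbp2, a sperm zona-binding protein, had 98 and 28 (fold 4.43). The regions of Hspa2, Zp3 and Zpbp2 did not overlap the promoter window of their gene. Tnp1, Figla and Tcl1, also on this list, each had 1 that did. Pluripotency genes had a region in 5 of 13 (38.5%, 13.9% to 68.4%), with a median fold of 3.39 over 6 regions. Dppa3, a maternal factor that protects DNA methylation in the zygote, had 105 and 26 tags (fold 5.09), and Klf4 had 27 and 11 (fold 2.98). Tcl1, on both lists, had 123 and 43 (fold 3.67) and a second region (26 and 6, fold 4.84). This second region overlapped the promoter window by 80 bp, of which 30 lie before the start. Imprinted genes had regions in 3 of 17. Peg12 had 121 and 32 tags (fold 4.80), and 1 region (55 and 25 tags, fold 2.79) lay in Nnat and in Blcap, the gene around it.

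Few sensory receptors, which make up 1370 of the 7343 short genes, held a region. Olfactory receptors had a region in 25 of 1082 (2.31%, 1.5% to 3.39%) and vomeronasal, taste and trace amine receptors in 2 of 288 (0.694%), the trace amine receptors Taar2 and Taar4. Their promoter windows held a median of 1 CpG. The 27 with a region were unevenly placed: 4 of 8 receptors of the cluster on chromosome 15 from 98186011 to 98498406 (Olfr281, Olfr282, Olfr283 and Olfr284) held one, against 6 of 123 in the cluster on chromosome 7 from 102476773 to 105369317. Both clusters were chosen after their values were seen. Olfr282, of 928 bp, had 2 regions (101 and 35 tags, fold 3.68, across its start) that together covered 66.1% of it, the largest share of any short gene. Olfr284 followed with 46.7%, then Spem2 and Spz1, genes of sperm formation (40.4% and 40.3%), Olfr750 (40.2%) and Krtap16-3 (39.3%). Olfr691, with 118 and 33 tags (fold 4.55), was the best covered receptor. Without sensory receptors the share of short genes with a region was 918 of 5973 (15.4%). Many receptor genes span 1 kb or less, and other genes of that length held a region in 10 of 391 (2.56%, 1.23% to 4.65%). That is near the share of olfactory receptors, but this holds for that length only. Other genes of 1 to 2 kb held a region in 34 of 689 (4.93%, 3.44% to 6.83%). At 8 to 10 kb, 281 of 974 genes held one with receptors counted and 281 of 947 without, so no receptor of that span did. Leaving out receptors raised the density in genes up to 2 kb to 39.7 per megabase. Whether length accounts for the low share of receptors was not tested.

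**Figure D4:**
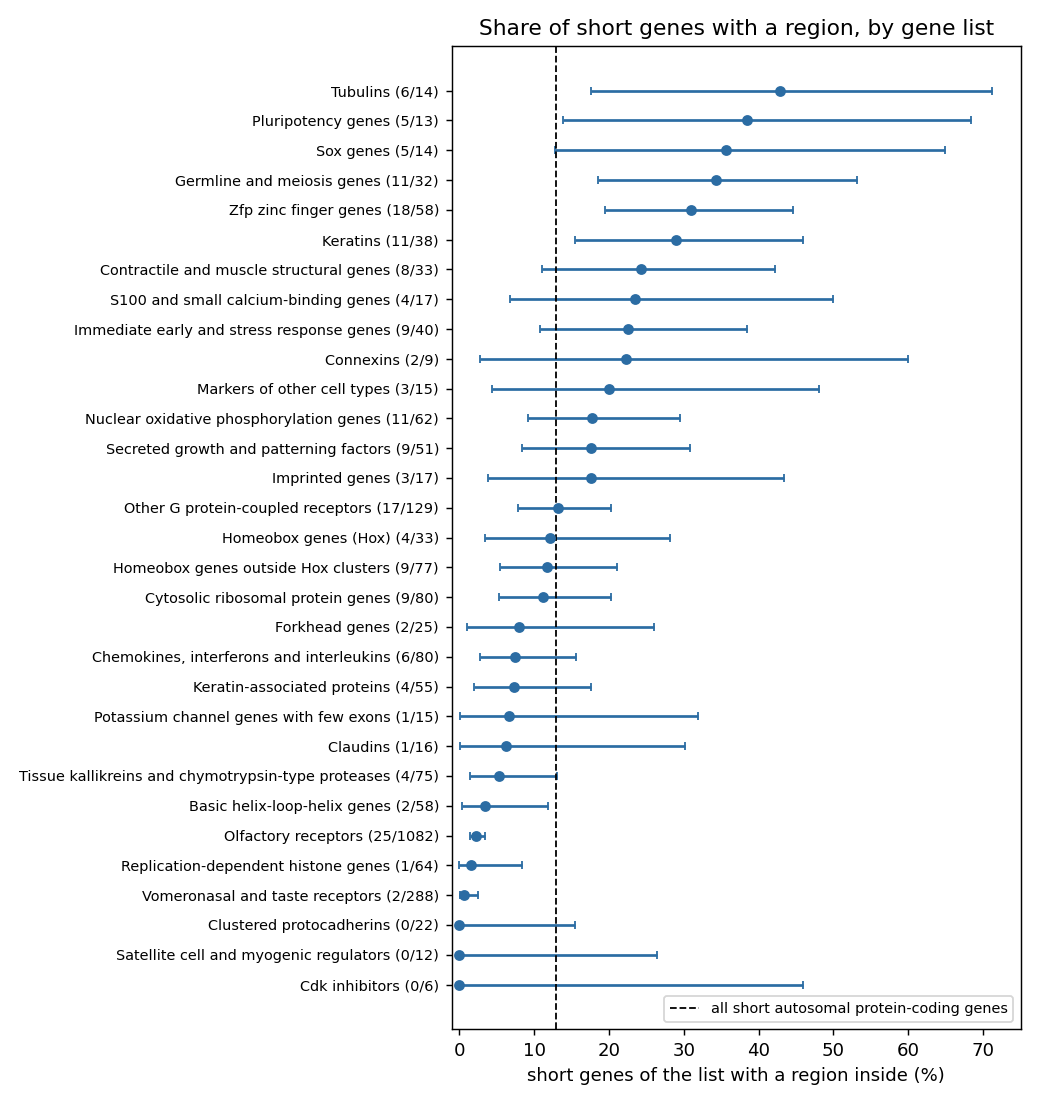
Share of the short genes in each of 31 lists that held a region (x axis, %, with exact 95% binomial limits); the numbers with a region and in the list follow each name, and the dashed line marks all short genes. Tubulins (42.9%) to keratins (28.9%) lie highest, and olfactory receptors (2.31%), histones (1.56%) and the list of vomeronasal, taste and trace amine receptors (0.694%) lie lowest among lists with a region.

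The 4 genes with 4 regions and, of the 23 with 3, the 4 with the most oil tags in sum held regions of differing fold. Cxxc1, which encodes a protein that binds unmethylated CpG, had 4 regions that covered 26.1% of it, with folds of 3.45, 4.71, 4.95 and 5.00. Dnajb2, a co-chaperone, had 4 with folds of 2.86, 4.0, 4.21 and 7.19. Plod3, a collagen-modifying lysyl hydroxylase, had 4 with folds of 4.62 to 7.63, and Rgl2, an exchange factor for Ral, 4 with folds of 3.18 to 6.07. Cby1, an antagonist of beta-catenin, had 3 regions that differed: 203 and 87 tags (fold 3.03, 2.37 to 3.98), 144 and 46 (fold 4.02) and 76 and 55 (fold 1.79). Cpt1b, the muscle carnitine palmitoyltransferase, had 3 (folds 3.45, 4.71 and 5.01), as did Mrpl38, of the mitochondrial ribosome (4.01, 4.85 and 7.10), and Pex19, a peroxisome factor (3.37, 4.07 and 6.25). In Mrpl38 the 7.10-fold region had 2 or fewer tamoxifen tags.

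**Figure D5:**
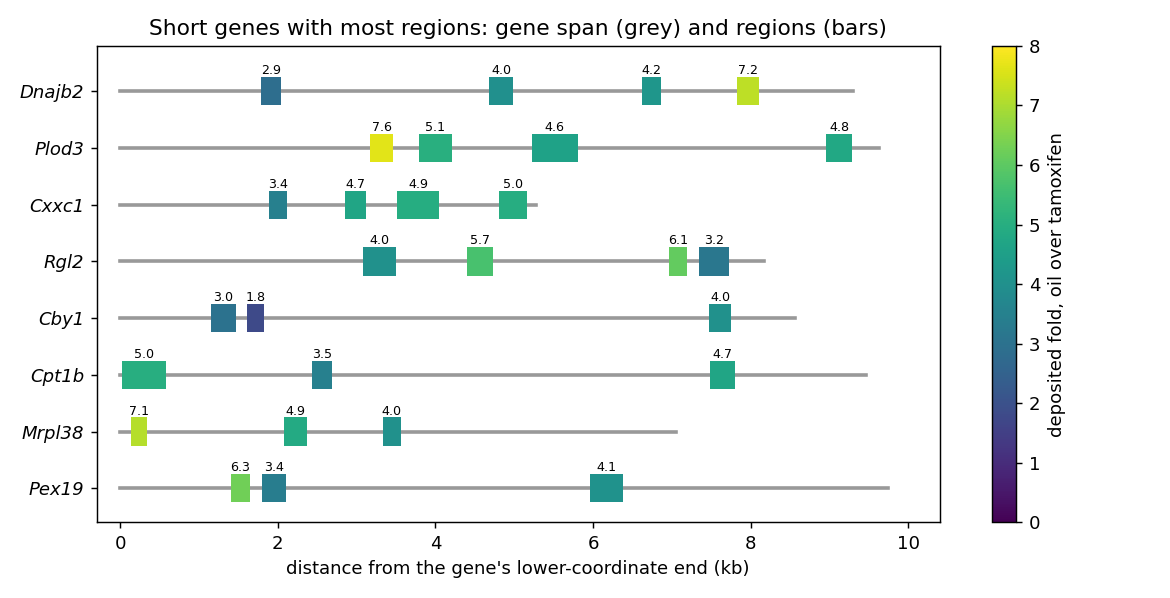
Position of the regions (bars, coloured and labelled by the authors' fold) along the 8 short genes with most regions (ties at 3 regions taken by summed oil tags), in kb from the gene's lower-coordinate end (x axis); grey lines are the gene spans. Dnajb2, Plod3, Cxxc1 and Rgl2 have 4 regions each, and the lowest fold drawn, 1.79, is in Cby1.

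The largest folds came with few tamoxifen tags and wide limits. Sox12 (chromosome 2, 152394943 to 152395292) had 3 tamoxifen tags against 94 and had the highest fold of all 1143. Lat, an adaptor of T cell receptor signalling, had 54 and 3 tags (fold 16.7, 7.66 to 118; chromosome 7, 126367609 to 126367935). Atp6v0c, the proton-pore subunit of the vacuolar ATPase, had 66 and 5 (fold 13.9, 7.05 to 55.1), and Mospd3 had 51 and 4 (fold 12.8). Cmtm2b, of a chemokine-like family, had 93 and 9 (fold 12, 6.84 to 30.6), and Cdk5r1, the neuronal activator of Cdk5, had 107 and 12 (fold 10.6, 6.42 to 23.3). Cd74, the invariant chain of MHC class II, had 36 and 3 (fold 11.3). Mrps18c, of the mitochondrial ribosome (53 and 5, fold 11.2), Eif1b (44 and 4, fold 11.1) and Rnaseh1, which cuts RNA in RNA-DNA hybrids (69 and 7, fold 11.0), completed, with Krt82 and Atp5d, the highest 12 among regions with more than 2 tamoxifen tags. The lower limits of the tag ratio of these 12 ran from 4.97 to 13.6, and only that of Sox12 was above 10.

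The most deeply covered regions had smaller folds and narrower limits. The q limit of the list lets in regions with many tags at smaller folds than regions with few tags. Mafg, a small Maf transcription factor, had the most oil tags, 289, and 162 tamoxifen tags (fold 2.33, 1.92 to 2.85; chromosome 11, 120627949 to 120628481). Rcor2, a CoREST corepressor, had 237 and 151 (fold 2.05, 1.67 to 2.54), and Slamf8, an immune receptor, 219 and 102 (fold 2.79). Duxf3, a double homeobox gene of the early embryo found in tandem copies, had 210 and 163 (fold 1.68, 1.37 to 2.09), and Amd2, a near copy of an S-adenosylmethionine decarboxylase gene, 201 and 108 (fold 2.42). Counts at both may mix copies and are uncertain. Mospd3 had 200 and 65 (fold 3.97) in a region other than its 12.8-fold one. The remaining regions under 2-fold were in Shisa2 (71 and 50 tags, fold 1.84), Hspa1l, a testis Hsp70 (62 and 41, fold 1.95), and Zfp324 (60 and 39, fold 1.98). Only 9 of the 1143 regions had 100 or more tamoxifen tags.

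The widest region, 1189 bp, lay in Erf, a repressor of the Ets family, with 47 oil and 6 tamoxifen tags at its summit (fold 8.61). Obox6, an oocyte homeobox gene, had one of 1150 bp (153 and 50 tags, fold 3.94) and Irgq one of 1102 bp (95 and 24, fold 4.97). The splicing factor gene Srsf6 (885 bp), Mycn (863 bp) and Atp5a1 (828 bp) followed. At the 10 kb limit, Creld1 (9988 bp; 40 and 4 tags, fold 10.1), Rnaseh1 (9992 bp) and Blcap (10000 bp; 53 and 9 tags, fold 6.87) lay just inside. Casq1, the calcium store protein of fast muscle (10002 bp; 113 and 51 tags, fold 2.86), Thoc3 (10004 bp; 42 and 6, fold 7.71) and Ptbp1 (10004 bp; 85 and 11, fold 9.16) lay just outside and are not among the 1143.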

How the data were processed

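Captured DNA of satellite cells was compared between 1 oil and 1 tamoxifen library. The submitters' processing notes name Trim Galore, HISAT2, MACS2 2.2.6 and the mm10 build. The authors called the regions with the oil alignment as treatment and tamoxifen as control, at a q limit of 0.0001, per the file headers. The name of the list gives the treatments in the opposite order. The command line in its header was followed, and the direction of every fold and tag count rests on that. This gave 19534328 oil tags of 35216008 and 25614791 tamoxifen tags of 36519772 after duplicate removal. Deposited values were the pileup at the summit, a signal that counts oil tags, the fold enrichment, a ratio, and the -log10 p and -log10 q values, whose headings had been lost and which were read from their place in the file. Tamoxifen tags were computed from pileup and fold with the library scale of 0.763. They were whole within 0.02 tags in 38251 regions (97.5%). The other 980 lay at the genome mean of 2.10 scaled tags, meaning 2 or fewer tags.

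Regions were placed by midpoint in RefSeq genes (GRCm38.p6). Strand and CpG counts came from RefSeq promoter windows, so orientation was known for 80.5% of short genes. The table gives no exons. Intervals are exact 95% Clopper-Pearson or Poisson limits, computed with Python 3.11.15, pandas 2.3.3, numpy 2.4.6 and scipy 1.17.1. They cover counting error only, and folds are taken where oil was highest. The scripts were tested on simulated data.

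The members and gene lists were chosen with earlier results of these data known. Genes named were the 12 highest folds with a tamoxifen value above the genome mean, the 8 regions with most oil tags, the 8 genes with most regions (ties by summed oil tags) and the 6 widest regions. The 6 lowest folds, the 6 most covered genes, up to 5 best-covered members of each list and the 3 genes on either side of the span limit were added. Sequences and the genes with a covered promoter were chosen after their values were seen. Predicted genes were counted and not named. The non-methylated libraries were not analysed here.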

Additional observations from a re-analysis of the deposited data

How the results depend on the processing

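Of 74 recomputed values, 49 stayed within the limits of the value reported and 25 moved. For counts of regions and genes the limit was 1.5 times the value reported. Reversal of a result was not checked separately. With a span limit of 5 kb or 20 kb in place of 10 kb there were 356 or 3334 regions (0.923% or 8.64% of autosomal regions) in 323 or 2456 genes (7.07% or 22.1% of short genes). Density was then 37.2 per megabase at 5 kb, and its ratio to longer genes 1.60 or 1.88. Past q 1e-10 the median fold was 4.98, 76.9% of regions had 4-fold or more, 11.0% of short genes held a region and density was 32.4. With unscaled tamoxifen tags these were 3.75 for the median fold, 42.0% for 4-fold or more and 37.3 for density. Keeping regions also inside longer genes gave 3.16% of regions and 13.8% of genes. With 30 or more oil tags, 11.3% of genes held a region and density was 34.4. Without sensory receptor genes, chosen after seeing the data, the share was 15.4%. Within 500 or 2000 bp of a gene end lay 17.1% or 63.3% of regions. No paired analysis was possible because each treatment had 1 library. Depth limits the highest folds: the 12 named with more than 2 tamoxifen tags rest on 3 to 12. Other regions of over 10-fold also had few, such as Ddit3 with 9 and Creld1 with 4, and some had 2 or fewer.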

Other observations

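On the X chromosome, left out above, 24 of 399 short genes (6.02%, exact limits 3.89% to 8.82%) held 25 regions, and on the Y chromosome 1 of 184 did. The Rhox genes, a reproductive homeobox cluster on the X chromosome that is expressed in testis and ovary, held 7 of the 25. Of 29 short Rhox genes 6 held a region, with folds of 3.79 to 9.69 and a median of 6.77. Rhox1 had the highest, with 90 oil and 11 tamoxifen tags. Several Rhox genes are near-identical copies, so the gene to which a tag belongs is uncertain. They were chosen after their values were seen.

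Among autosomes, density inside short genes ran from 24.3 per megabase on chromosome 13 (exact limits 16 to 35.4) to 68.0 on chromosome 18 (44.0 to 100.4). Chromosome 18 had 111 short genes and 25 regions. A pair of predicted genes on chromosome 6, 47656791 and 47678438 at the region starts, had the same 207 oil and 93 tamoxifen tags, a fold of 2.89 each.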
